A study of Mus musculus with 12 samples.

Results

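Imprinted genes are expressed mainly or only from the allele inherited from 1 parent. The genes described here were the 44 mouse autosomal imprinted genes of a list chosen by name, without the Dlk1-Dio3 cluster, out of 51467 gene entries in the count table. All 44 were found by matching gene identifiers to GENCODE symbols. At least 3 CPM (reads per gene relative to library size) in at least 3 of 12 libraries were reached by 34 of them, among 14033 genes that passed the same filter, and 10 were under it. Of the 34, 20 are generally described as paternally and 14 as maternally expressed, some of them only in certain tissues. The libraries hold no allele information, so a level is the sum over both parental copies.

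At an imprinted locus, DNA methylation laid down in 1 germ line marks a control region, and zinc finger proteins such as ZFP57 recruit factors that keep that mark through the divisions of the early embryo and of embryonic stem cells (ESCs). The marked region then sets which copy of several neighbouring genes is used, often through a boundary element or a long noncoding RNA made in the opposite direction to a coding gene. Many paternally expressed members promote growth of the embryo and placenta, and many maternally expressed members restrain it. Mouse ESCs are known to lose or gain such marks in culture, which is why imprinted genes are often examined in them.

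The study compared wild-type mouse ESCs with ESCs lacking Dgcr8 (Dgcr8 KO), which encodes the partner of Drosha that recognises primary microRNA transcripts so that hairpins can be cut out. All cultures were grown with serum, LIF and 2 inhibitors (2i), and newly made RNA in all of them was labelled for 30 min with 500 uM 4-thiouridine (4sU). The extracted RNA was then divided, so that biotin-captured 4sU RNA gave a measure of nascent transcription and RNA depleted of ribosomal RNA gave steady-state levels (total RNA). Each of the 4 groups (wild-type total, Dgcr8 KO total, wild-type 4sU, Dgcr8 KO 4sU) held 3 replicates. According to the study's methods the wild-type cells were the line V6.5 and the KO was a line made in earlier work. Each genotype is represented by 1 line, so its effect cannot be told apart from other differences between the lines. Nothing says that replicates were separate cultures, so p-values measure the spread between these samples, which may be technical.

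Total counts ranged from 6873708 to 9295245 in total libraries and from 4593914 to 6005526 in 4sU libraries. The libraries labelled KO held less Dgcr8 RNA, at 101.6 ± 9.30 CPM in wild-type and 33.3 ± 1.09 CPM in KO total RNA (SD, n = 3, limma adjusted p = 6.63e-17). All 7 ESC markers passed the filter, and their summed level was 4463 to 4562 CPM in wild-type and 4488 to 4573 CPM in KO total RNA. Within that sum, 3 markers were higher and 4 lower in KO at a limma adjusted p under 0.05 (27.2% and 36.7% of all genes). Their 4sU sum was 5299 to 5395 CPM in wild-type and 6043 to 6701 CPM in KO. Throughout, CPM are counts scaled to library size and TMM factor, changes are log2 of KO over wild-type, SE is the standard error of that change, and a gene was called at a limma adjusted p under 0.05 with an absolute log2 change over 1.

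Among the tested imprinted genes, more were lower than higher in Dgcr8 KO total RNA. Of the 34 tested, 8 were called in total RNA (23.5%, against 17.2% of all genes), all 8 lower and 0 higher, as also in edgeR and DESeq2 (7.82% of all genes were called lower and 9.33% higher). They were H19, Igf2, Peg3, Usp29, Sgce, Plagl1, Peg12 and Phlda2. Of these 8, 5 (H19, Igf2, Phlda2, Usp29 and Sgce) reached 3 CPM in no KO library and passed the filter only through wild-type libraries, so they had to be lower, and the counts and medians over the tested members are descriptions. Where 3 CPM were required in all 12 libraries, 3 of 28 members were called (10.7%, against 10.2% of all genes), namely Peg3, Plagl1 and Peg12. Without the limit on the change, 27 members changed at an adjusted p under 0.05 (63.9% of all genes), 20 lower and 7 higher (36.7% and 27.2% of all genes). The 3 KO libraries did not overlap the 3 wild-type libraries for 28 members (68.8% of all genes), with 8 above and 20 below (29.2% and 39.6% of all genes). Over the 3 contrasts of total RNA, nascent RNA and stability, 11 members were called at least once (21.0% of all genes). The median log2 change was -0.23 over the members and -0.09 over all genes tested. The 20 paternally expressed genes had a median of -0.33 with 6 called, and the 14 maternally expressed genes a median of -0.18 with 2 called. Since these are bulk samples, fewer cells that express a gene and less RNA per cell cannot be told apart. Leaving out wild-type replicate 3 left 5 calls, because H19, Sgce and Phlda2 then no longer reached 3 CPM in 3 libraries. Leaving out wild-type replicate 2 left 6, with Nespas called higher (1.01) and the same 3 genes untested.

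Of the 8 genes, 6 were also called lower in nascent RNA, all but Peg12 and Phlda2, with H19 called by limma alone. In nascent RNA 7 of 34 members were called (20.6%, against 14.8% of all genes), of which 6 were lower (5.27% of all genes) and 1, Sfmbt2, was higher (9.5% of all genes). Of these 7, 4 (H19, Igf2, Usp29 and Sgce) passed the filter only through wild-type libraries. With 3 CPM in all 12 libraries, 3 of 28 members were called (10.7%, against 8.16% of all genes), namely Peg3 and Plagl1 lower and Sfmbt2 higher. At an adjusted p under 0.05, 24 changed (56.3% of all genes), 19 lower and 5 higher (28.0% and 28.3% of all genes). The groups did not overlap for 24 members (59.0% of all genes), with 6 above and 18 below (29.6% and 29.4% of all genes). The median nascent change was -0.35 over the members and -0.02 over all genes, with -0.57 over the paternally and -0.15 over the maternally expressed members. Total and nascent changes come from RNA of the same samples, and each contrast has its own 3 libraries a group.

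**Figure D1:**
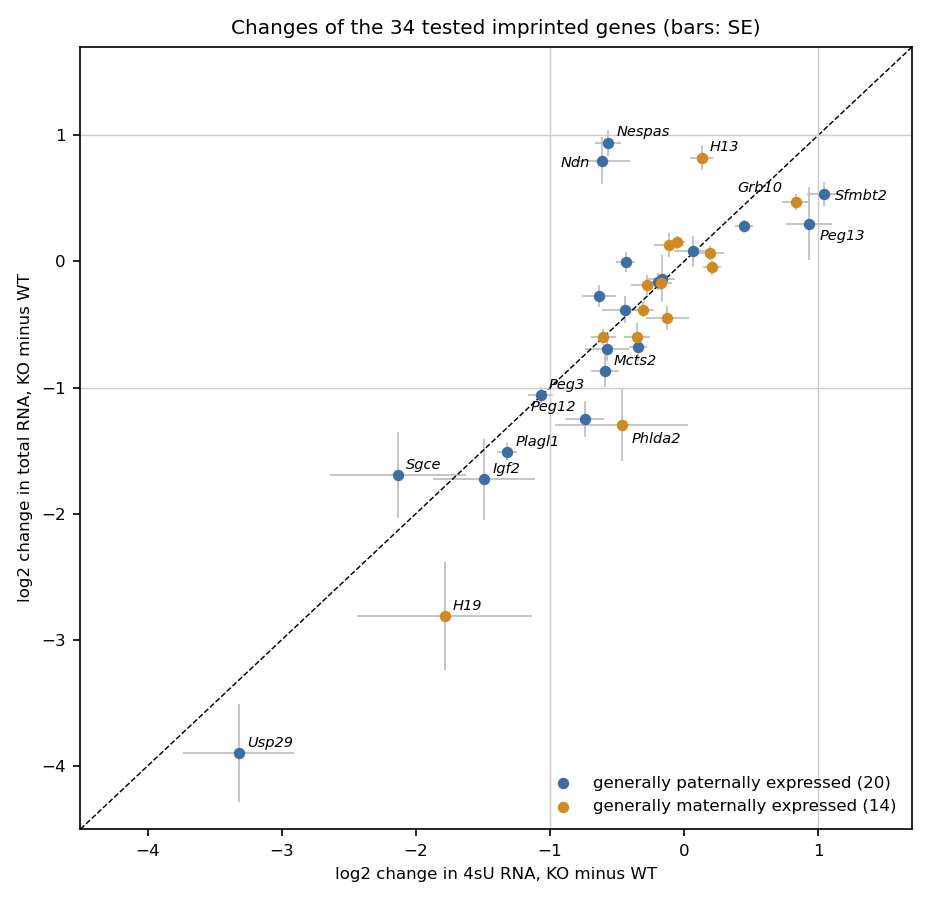
Log2 change in total RNA (vertical) against log2 change in 4sU RNA (horizontal) for the 34 tested imprinted genes, KO minus wild-type, with SE bars, a dashed line of equal change and grey lines at the limit of 1. Usp29, H19, Igf2, Sgce and Plagl1 lie at the lower left, Sfmbt2 and Grb10 at the right, and Nespas and Ndn above the line with total RNA up and 4sU RNA down.

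The largest decrease was that of Usp29 in the Peg3 domain on chromosome 7, where Peg3, a zinc finger protein, and Usp29, a deubiquitinase family member, are transcribed away from each other from a shared start region. The RefSeq promoter windows of the pair (GRCm38.p6, 250 bases before to 50 after each start) overlap by 263 bases, so 1 window is shown. It was printed because both genes fell, with the palindrome TGACGTCA, the CRE element bound by CREB and ATF factors, in capitals:

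Usp29 promoter, chr7:6730333-6730632, plus strand: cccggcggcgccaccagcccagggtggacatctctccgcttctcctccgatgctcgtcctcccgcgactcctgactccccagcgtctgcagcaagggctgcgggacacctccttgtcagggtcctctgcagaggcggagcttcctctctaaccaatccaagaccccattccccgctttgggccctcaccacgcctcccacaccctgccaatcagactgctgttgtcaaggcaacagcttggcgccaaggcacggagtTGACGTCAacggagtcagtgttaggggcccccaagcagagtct

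TGACGTCA, which reads the same on both strands, was found in 1.79% of 32851 promoter windows and in 3 of the 49 windows of 34 list genes that RefSeq matched, those of Peg3, Usp29 and Zdbf2. The matches of Peg3 and Usp29 are the same site, in the overlap of their windows. The motif was chosen after the sequence was seen, and a match describes letters, not binding.

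Usp29 (chr7:6730583-6967219, plus strand, mm10) stood at 11.9, 9.63 and 10.7 CPM in wild-type total libraries and at 0.903, 0.649 and 0.433 CPM in KO. Its 4sU levels were 9.65, 7.74 and 9.96 CPM in wild-type and 0.400, 0.763 and 1.71 CPM in KO. All KO libraries lay far below all wild-type libraries in both RNA types. The change was -3.90 in total RNA (SE 0.386, limma adjusted p = 2.08e-10), 14.9-fold lower, and -3.32 in 4sU RNA (SE 0.415, limma adjusted p = 4.45e-08), 9.99-fold lower. These KO levels rest on 16 total and 15 nascent counts in 3 libraries each. The counting intervals (95%, exact) of the wild-type to KO ratio run from 9.43 to 27.8 and from 5.59 to 17.4.

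Peg3 (chr7:6703892-6730421, minus strand) was more abundant, with 144.1, 139.2 and 144.8 CPM in wild-type total RNA and 65.9, 69.7 and 69.9 CPM in KO. Its 4sU values were 63.2, 63.0 and 63.7 CPM in wild-type and 28.2, 27.5 and 35.2 CPM in KO. The groups were apart in both, and the change was nearly the same size in total (-1.06, SE 0.0632, limma adjusted p = 1.26e-15) and in 4sU RNA (-1.07, SE 0.0945, limma adjusted p = 3.39e-11). The difference between them, the stability change, was 0.01 (SE 0.114, limma adjusted p = 0.977). Peg3 sat just past the limit in 4sU RNA, and without KO replicate 2 its nascent change was -0.99. Zim1, the third gene of the domain, was under the filter with 81 counts in all.

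Usp29 fell further than Peg3. As Usp29 passed the filter only through wild-type libraries, it had to be lower, and the comparison with Peg3 is a description. The log2 ratio of Usp29 to Peg3 in total RNA went from -3.73 ± 0.127 to -6.61 ± 0.505 (SD, n = 3), and in 4sU RNA from -2.79 ± 0.188 to -5.04 ± 0.768 (SD, n = 3), with no overlap of the groups. For each, the exact two-sided permutation p = 0.1 was the smallest that 3 against 3 allow. Such ratios were formed for 8 pairs of neighbouring members in both RNA types, 16 values in all, and their smallest Benjamini-Hochberg adjusted value was 0.123 (exact permutation test). None of the 16 can pass 0.05 in a design of this size.

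The pair Sgce and Peg10 on chromosome 6 is arranged in the same way, and its genes stood at different changes. Since Sgce passed the filter only through wild-type libraries, it had to be lower, and the contrast with Peg10 is a description. Sgce (chr6:4674350-4747207, minus strand), which encodes epsilon-sarcoglycan, stood at 3.12, 4.88 and 4.30 CPM in wild-type total RNA and at 1.13, 1.43 and 1.16 CPM in KO. Its 4sU values were 2.41, 3.56 and 2.67 CPM against 0.600, 1.34 and 0.190 CPM. KO libraries were lower in every case, at -1.69 in total (SE 0.341, limma adjusted p = 6.23e-05) and -2.13 in 4sU RNA (SE 0.507, limma adjusted p = 6.40e-04). The nascent KO level is only 11 counts over 3 libraries, and the counting interval of the wild-type to KO ratio runs from 2.04 to 8.52.

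Peg10 (chr6:4747306-4760517, plus strand), a retrotransposon-derived gene needed in the placenta, had 17.3, 24.8 and 24.1 CPM in wild-type and 20.1, 26.6 and 24.5 CPM in KO total RNA. The groups overlapped in total and in 4sU RNA. The changes were 0.08 (SE 0.125, limma adjusted p = 0.594) and 0.07 (SE 0.139, limma adjusted p = 0.705). The log2 ratio of Sgce to Peg10 moved from -2.41 ± 0.0742 to -4.19 ± 0.122 in total RNA (SD, n = 3, exact permutation p = 0.1) and from -3.13 ± 0.217 to -5.34 ± 0.956 in 4sU RNA (SD, n = 3, exact permutation p = 0.1).

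**Figure D2:**
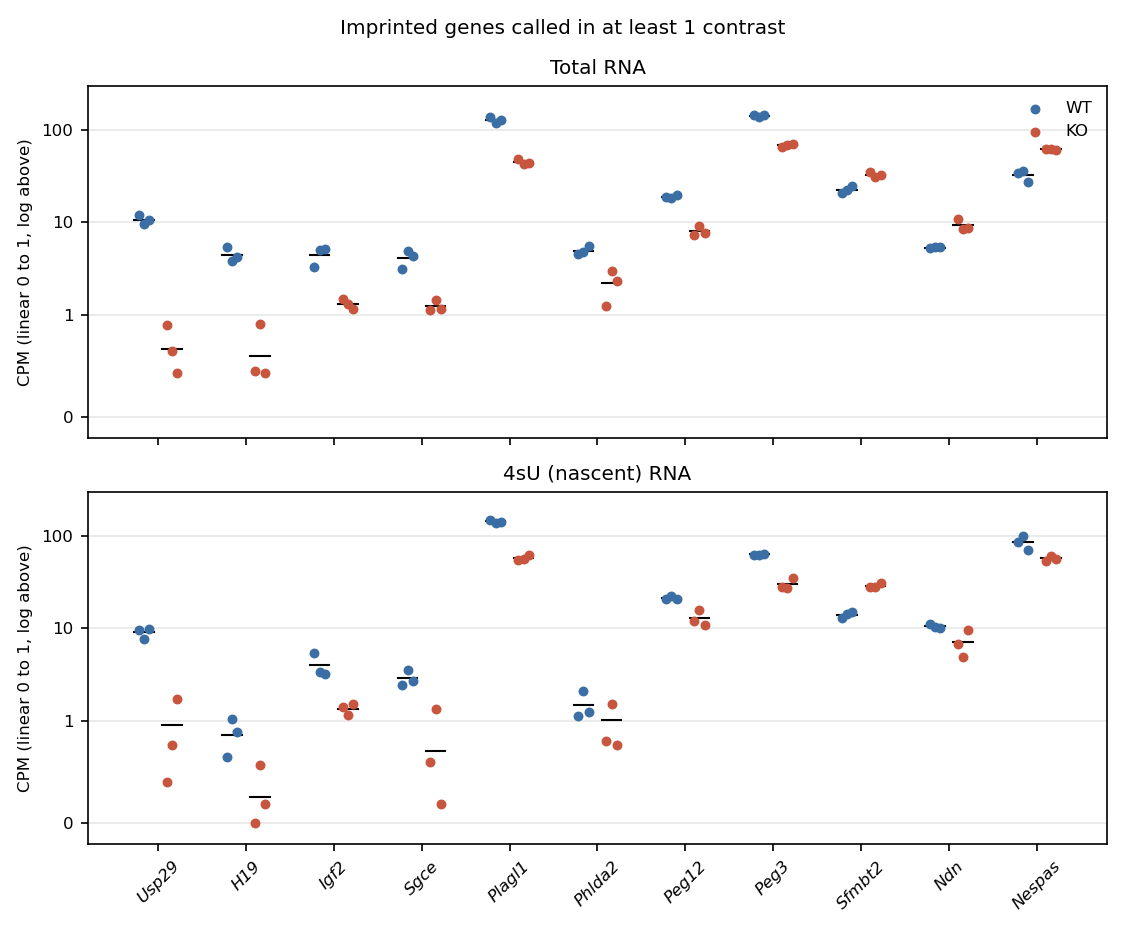
CPM in each library (points, linear axis from 0 to 1 and logarithmic above) and group means (lines) for the 11 members called in at least 1 contrast, wild-type in blue and KO in red, total RNA above and 4sU RNA below. The 8 genes at the left are lower in KO total RNA in every library, and Sfmbt2, Ndn and Nespas are higher.

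H19, a maternally expressed noncoding RNA that hosts miR-675, and Igf2, the paternally expressed growth factor beside it on chromosome 7, both fell. H19 (chr7:142575558-142578120, minus strand) went from 5.46, 3.78 and 4.18 CPM to 0.452, 0.908 and 0.433 CPM in total RNA. Its change was -2.81 (SE 0.426, limma adjusted p = 8.43e-07), on 102 wild-type and 14 KO counts. Every KO library lay below every wild-type library.

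In 4sU RNA, H19 had 4, 5 and 5 counts in wild-type and 0, 3 and 1 counts in KO libraries. Limma called it at -1.78 (SE 0.653, adjusted p = 0.0205), whereas edgeR gave an adjusted p of 0.0599 and DESeq2 one of 0.0798. Without KO replicate 1 the change was -1.07 with a limma adjusted p of 0.209, and without any 1 wild-type replicate H19 was no longer tested. The wild-type to KO ratio of summed counts was 3.26, with a counting interval from 1.02 to 13.6, so at this depth the size of the nascent decrease was poorly set.

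Igf2 (chr7:142650766-142666816, minus strand) went from 3.28, 4.999 and 5.11 CPM to 1.47, 1.30 and 1.16 CPM in total RNA, a drop that limma called (-1.73, SE 0.322, adjusted p = 2.21e-05). The 4sU libraries went from 5.47, 3.35 and 3.20 CPM to 1.40, 1.15 and 1.52 CPM, also called (-1.49, SE 0.381, limma adjusted p = 1.30e-03). The groups were apart in both. Both genes of a locus in which the copies of the parents are used in alternation were lower in the same libraries. As H19 and Igf2 each passed the filter only through wild-type libraries, each had to be lower, and their joint fall is a description. The log2 ratio of H19 to Igf2 was 0.01 ± 0.618 in wild-type and -1.12 ± 0.568 in KO total RNA (SD, n = 3).

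Plagl1 (chr10:13090788-13131694, plus strand), a zinc finger transcription factor that is known to regulate other imprinted genes, was among the most abundant members that fell. It stood at 140.0, 120.6 and 128.7 CPM in wild-type total RNA and at 48.2, 43.2 and 44.3 CPM in KO. The 4sU values were 151.2, 138.5 and 143.4 CPM and 55.0, 56.7 and 61.9 CPM. Every KO library was below every wild-type library by a wide margin. The change was -1.51 in total (SE 0.0728, limma adjusted p = 6.42e-18) and -1.32 in 4sU RNA (SE 0.0771, limma adjusted p = 1.94e-15), and the stability change was -0.19 (SE 0.106, limma adjusted p = 0.247).

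Peg12 (chr7:62461871-62464510, minus strand), of the Frat family of GSK3-binding proteins, stood at 19.1, 18.4 and 19.6 CPM in wild-type and 7.22, 9.21 and 7.65 CPM in KO total RNA. It was called in total RNA (-1.25, SE 0.143, limma adjusted p = 3.93e-09). The nascent decrease was smaller than the limit, at -0.74 (SE 0.145, limma adjusted p = 6.27e-05), and the stability change of -0.51 missed the threshold (SE 0.203, limma adjusted p = 0.0858). The KO libraries were below all wild-type libraries in both RNA types.

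Phlda2 (chr7:143501545-143502541, minus strand), a maternally expressed gene that limits growth of the placenta, had 4.53, 4.76 and 5.58 CPM in wild-type and 1.24, 2.98 and 2.31 CPM in KO total RNA. Its change was -1.29 (SE 0.286, limma adjusted p = 2.04e-04). Without KO replicate 1, which was the lowest library, it was -0.89 and under the limit. Its 4sU libraries held 4 to 10 counts per library, the groups overlapped, and -0.47 did not pass (SE 0.494, limma adjusted p = 0.435).

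Markers of other cell types moved in the same libraries. The summed level of 8 fibroblast markers, of which 1 passed the filter and Postn and Dcn had 0 counts, was 10.97 to 13.3 CPM in wild-type and 5.45 to 6.78 CPM in KO total RNA. Pdgfrb, the 1 tested, made up most of it (9.02 ± 1.07 against 5.22 ± 0.711 CPM, SD, n = 3). For 8 primitive endoderm markers, 3 of them tested, the summed level was 105.0 to 117.1 against 48.1 to 53.9 CPM. Most of that sum was Lama1, a laminin subunit gene (102.6 ± 8.40 against 37.3 ± 4.64 CPM, SD, n = 3). Pdgfra was called higher (0.948 ± 0.425 against 4.55 ± 1.34 CPM), and its wild-type 4sU level was 1.88 ± 0.545 CPM. With such wild-type levels Pdgfra passed the filter only through KO libraries, so it had to be higher. Gata4 stood at 4.92 ± 0.820 against 6.48 ± 0.765 CPM. Trophoblast markers (3 of 8 tested) stood at 63.8 to 77.1 against 44.4 to 48.5 CPM. Tfap2c made up most of that sum (56.1 ± 5.24 against 35.0 ± 0.840 CPM, SD, n = 3). The trophoblast sums overlapped in 4sU RNA (107.0 to 121.7 against 100.7 to 119.6 CPM). Mesoderm markers (2 of 5 tested) stood at 2.44 to 3.95 against 7.79 to 9.99 CPM. That rise was mostly Kdr (1.32 ± 0.373 against 7.65 ± 1.26 CPM), while T stood at 0.540 ± 0.202 against 0.0481 ± 0.0833 CPM. Neural markers (3 of 5 tested) stood at 153.4 to 155.0 against 80.3 to 88.0 CPM. Most of the neural sum was Nes, an intermediate filament gene (93.8 ± 6.85 against 56.3 ± 3.06 CPM, SD, n = 3), and Tubb3, a neuronal tubulin gene (47.5 ± 4.39 against 10.9 ± 1.23 CPM). The neural transcription factor genes stood at 12.2 ± 2.37 against 14.5 ± 0.673 CPM for Sox1 and at 0.576 ± 0.207 against 1.01 ± 0.247 CPM for Pax6. The part of such cells in the decreases of H19, Igf2, Plagl1 and the other members was not tested.

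Changes in RNA stability were next separated from changes in transcription. The stability change is the genotype effect in total RNA minus that in 4sU RNA, tested as the interaction term of the model. Only Nespas and Ndn of the 34 were called, both higher (5.88%, against 1.76% of all genes called and 0.791% called higher). At an adjusted p under 0.05 there were 6 members (16.1% of all genes), 4 higher and 2 lower (5.02% and 11.1% of all genes). Over all genes, 111 calls were higher and 136 lower. With RLE in place of TMM scaling, 147 were higher and 90 lower, and Nespas and Ndn were called there too. The median was -0.10 over the members and -0.09 over all genes.

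Nespas (chr2:174281237-174295436, minus strand) is a paternally expressed noncoding RNA that runs antisense to the Nesp exons of the Gnas locus, and the table counts the strands apart. In total RNA it rose from 34.4, 35.6 and 27.5 CPM to 61.6, 62.4 and 61.1 CPM, whereas in 4sU RNA it fell from 86.5, 101.4 and 71.5 CPM to 54.4, 61.6 and 56.7 CPM. All KO libraries lay above all wild-type libraries in total RNA and below all of them in 4sU RNA. The changes were 0.94 (SE 0.103, limma adjusted p = 1.55e-09) and -0.56 (SE 0.0987, limma adjusted p = 1.31e-05), and the stability change was 1.51 (SE 0.142, limma adjusted p = 2.87e-09), 2.84-fold higher. Its total to 4sU ratio stood at percentile 19.4 of all genes in wild-type and at percentile 53.0 in KO.

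Gnas (chr2:174284320-174346744, plus strand), which encodes the alpha subunit of the stimulatory G protein, stood at 134.7 ± 7.02 and 89.2 ± 6.46 CPM in wild-type and KO total RNA and at 59.7 ± 4.19 and 39.1 ± 2.57 CPM in 4sU RNA (SD, n = 3). It fell by similar amounts in total (-0.60, SE 0.0645, limma adjusted p = 1.29e-09) and in 4sU RNA (-0.60, SE 0.0941, limma adjusted p = 2.25e-06). The entry sums transcripts of several promoters of the locus, including those that are imprinted. The log2 ratio of Nespas to Gnas went from -2.06 ± 0.245 to -0.53 ± 0.0889 in total RNA (SD, n = 3, exact permutation p = 0.1). The 4sU ratio was 0.52 ± 0.318 and 0.56 ± 0.0760 (SD, n = 3), with overlapping groups.

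Ndn (chr7:62346569-62350262, plus strand) encodes necdin, a MAGE family protein of neurons that is paternally expressed within the Snrpn domain. It stood at 5.31, 5.37 and 5.35 CPM in wild-type and 10.8, 8.43 and 8.66 CPM in KO total RNA. Its nascent values were 11.1, 10.3 and 10.1 CPM in wild-type and 6.80, 4.96 and 9.52 CPM in KO. As for Nespas, KO was higher in all total and lower in all 4sU libraries. The changes were 0.80 (SE 0.188, limma adjusted p = 4.37e-04) and -0.61 (SE 0.206, limma adjusted p = 0.0123), and the stability change was 1.41 (SE 0.279, limma adjusted p = 4.76e-04), 2.66-fold higher. Without KO replicate 2 the nascent change of Ndn was -0.37 and did not pass (limma adjusted p = 0.158), while its stability change was still called.

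Snrpn, Ube3a and Mkrn3, the tested partners of Ndn and Peg12 in the domain, stood at other values. Snrpn had 55.7 ± 2.04 CPM in wild-type and 34.5 ± 2.54 CPM in KO total RNA, and 22.1 ± 4.98 and 14.7 ± 3.09 CPM in 4sU RNA (SD, n = 3), with overlap in the latter. Ube3a, a ubiquitin ligase gene, had 341.9 ± 18.1 and 330.1 ± 4.13 CPM in total and 179.1 ± 16.4 and 207.4 ± 20.7 CPM in 4sU RNA (SD, n = 3), and its groups overlapped in both. Mkrn3, a makorin family gene, had 7.18 ± 0.954 and 6.53 ± 1.11 CPM in total and 42.7 ± 3.76 and 37.9 ± 2.95 CPM in 4sU RNA (SD, n = 3), and neither change passed (limma adjusted p = 0.534 and 0.153).

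Ndn was also 1 of 13 members with a match, in the longest annotated 3′ untranslated region, to the AAGUGC seed of the ESCC microRNAs, a family abundant in ESCs that promotes rapid cell cycling. The matches of Ndn and H13, the tested members with a site and the highest stability change, are shown with the match (AGCACTT or GCACTTA) in capitals, on the transcript strand:

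Ndn, GENCODE M21 transcript, 3′ untranslated region: cagtgtagGCACTTAgcaccct
H13, GENCODE M21 transcript, 3′ untranslated region: ccatcccAGCACTTgtagaggc

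A site was present in 43.3% of the 30 tested members with an annotated region and in 21.4% of 11813 tested genes. Lengths of the regions were not matched between the 2 sets, so these shares are descriptions. The median stability change was -0.13 in the 13 members with a site and -0.08 in those without, while over all tested genes it was 0.03 with and -0.13 without a site. Among members with a site, stability changes ran from -0.58 (Usp29) to 1.41 (Ndn). Nespas is noncoding and was not part of this count.

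H13, a signal peptide peptidase gene that is maternally expressed, and Mcts2, a paternally expressed retrogene inside an H13 intron on the same strand, moved in opposite directions. Their exons share 0 bases, so no exon base is counted for both. Reads of unspliced H13 RNA over Mcts2 would still count as Mcts2, and they cannot be told apart. H13 (chr2:152669461-152708670, plus strand) went from 17.2, 16.6 and 16.6 CPM to 28.8, 30.1 and 30.5 CPM in total RNA (0.82, SE 0.0972, limma adjusted p = 8.04e-09). Nascent H13 went from 42.3, 39.7 and 40.0 CPM to 45.8, 44.8 and 43.4 CPM, which did not pass (0.13, SE 0.0855, limma adjusted p = 0.192). The stability change was 0.69 (SE 0.129, limma adjusted p = 2.48e-04).

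Mcts2 (chr2:152687035-152687951, plus strand), related to the translation factor MCTS1, went from 27.5, 30.9 and 25.8 CPM to 15.9, 14.4 and 15.6 CPM in total RNA (-0.87, SE 0.129, limma adjusted p = 5.88e-07). Its nascent change was -0.59 (SE 0.106, limma adjusted p = 1.89e-05). KO libraries were below wild-type in both RNA types. The log2 ratio of Mcts2 to H13 in total RNA changed sign, from 0.73 ± 0.140 to -0.96 ± 0.104 (SD, n = 3, exact permutation p = 0.1).

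**Figure D3:**
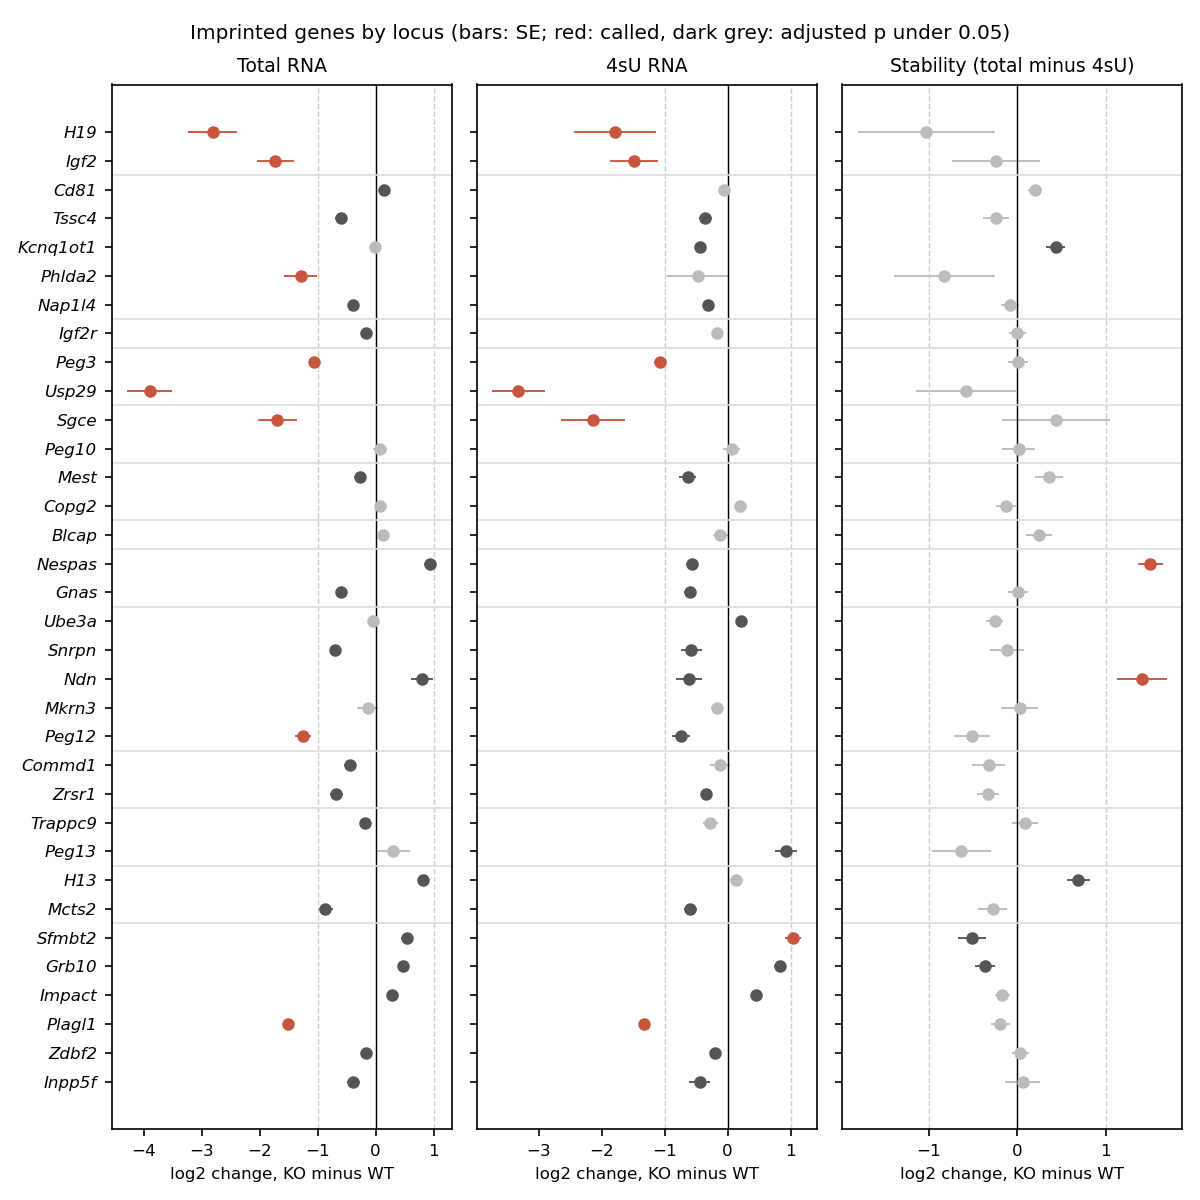
Log2 change (KO minus wild-type, with SE) of the 34 tested members in total RNA, 4sU RNA and stability, grouped by locus between grey lines from the H19-Igf2 pair at the top to the 6 single genes at the bottom. Called values are red, others with an adjusted p under 0.05 dark grey, and the rest light grey. Partners such as Sgce and Peg10, or H13 and Mcts2, lie at different values.

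Sfmbt2, a Polycomb-associated protein that is paternally expressed in the placenta, was the member whose nascent RNA rose most. Sfmbt2 (chr2:10370510-10595253, plus strand) had 13.03, 14.2 and 15.1 CPM in wild-type and 27.8, 28.4 and 31.0 CPM in KO 4sU RNA, and 20.9, 22.6 and 24.5 against 34.8, 31.1 and 32.9 CPM in total RNA. The KO libraries were higher in both. The nascent rise of 1.04 (SE 0.128, limma adjusted p = 2.97e-08) lay close to the limit, and it was 0.99 in DESeq2, 0.99 with RLE scaling and 0.97 without wild-type replicate 1, with adjusted p under 0.05 in each. The total change was 0.53 (SE 0.0938, limma adjusted p = 9.45e-06), and the stability change -0.51 (SE 0.158, limma adjusted p = 0.0242).

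An intron of Sfmbt2 holds a rodent cluster of microRNA genes, among them the Mir466, Mir467 and Mir669 families, and hairpins are what Dgcr8 is needed to cut. The annotation places 119 microRNA genes inside Sfmbt2 on its strand, with 0 bases shared with its exons, and 77 of them had counts. Many copies are near-identical and only uniquely mapped reads were counted, so single members are uncertain and their sum is given. In total RNA the sum was 3.12, 3.54 and 2.67 CPM in wild-type and 33.0, 30.1 and 29.9 CPM in KO. The 4sU sum was 15.8, 11.3 and 13.2 CPM against 12.6, 11.8 and 17.1 CPM.

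Thus hairpin reads in total RNA were 9.96 ± 1.49 times as high in KO (propagated SD, n = 3, exact permutation p = 0.1, the smallest possible) with no overlap, while those in 4sU RNA had a ratio of 1.03 ± 0.275 and overlapping groups (exact permutation p = 0.8). Exons of Sfmbt2 rose 1.45-fold in total and 2.06-fold in 4sU RNA. The libraries were not made for small RNA, so mature microRNAs were not measured, and reads of primary transcripts, uncut introns and precursors cannot be told apart. The sums were formed after the values of the host gene were seen.

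**Figure D4:**
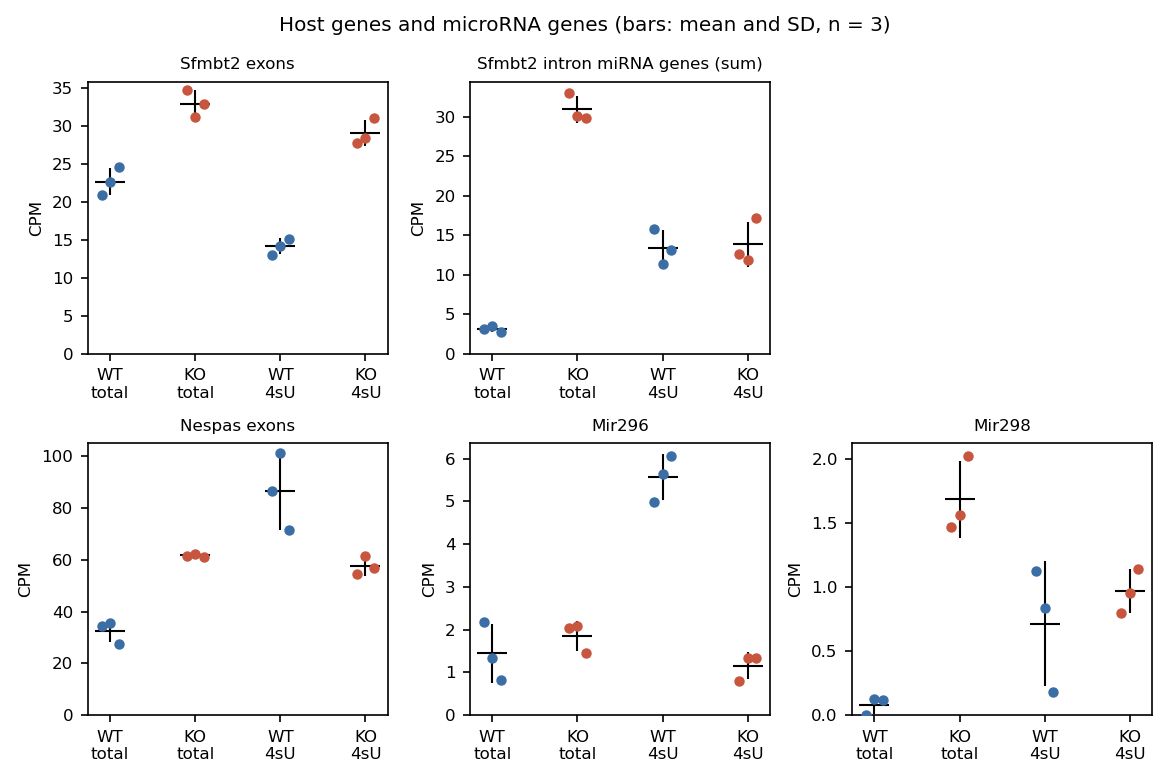
CPM by library (points) with mean and SD (n = 3) for the exons of Sfmbt2, the sum of microRNA genes in its intron, the exons of Nespas, Mir296 and Mir298, each in wild-type total, KO total, wild-type 4sU and KO 4sU RNA. Intronic hairpin reads of Sfmbt2 are high in KO total RNA and overlap in 4sU RNA, and Mir298 is near 0 in wild-type total RNA.

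A second pair of hairpins lies near Nespas. Mir298 and Mir296 are on the strand of Nespas, 13652 and 14112 bases beyond its annotated 3′ end. Their mature sequences (RefSeq, GRCm38.p6, minus strand) are shown because reads over their hairpins are described next, with the seed, bases 2 to 8, in capitals. The 4 seeds all differ from each other.

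mmu-miR-296-5p, chr2:174267093-174267113: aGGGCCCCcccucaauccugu
mmu-miR-296-3p, chr2:174267058-174267079: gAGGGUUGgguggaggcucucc
mmu-miR-298-5p, chr2:174267553-174267575: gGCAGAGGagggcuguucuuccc
mmu-miR-298-3p, chr2:174267512-174267535: gAGGAACUagccuucucucagcuu

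Mir298 had 0, 1 and 1 counts in wild-type and 13, 12 and 14 counts in KO total RNA, a KO to wild-type ratio of 19.3 with a counting interval from 4.99 to 165. Its 4sU counts were 7, 4 and 1 against 4, 5 and 6. Mir296 differed: its 4sU counts fell from 31, 27 and 34 to 4, 7 and 7 (-2.19, SE 0.383, limma adjusted p = 1.30e-05), and its total counts of 14, 11 and 7 against 18, 16 and 10 did not pass (0.50, SE 0.366, limma adjusted p = 0.235). The stability change of Mir296 was 2.69 (SE 0.529, limma adjusted p = 4.43e-04). Mir296 stood at 4.99, 5.65 and 6.05 CPM in wild-type 4sU libraries and under 3 CPM in all other libraries. It passed the filter only through those wild-type 4sU libraries, so it had to be lower in KO 4sU RNA. Its nascent and stability changes are therefore descriptions. Mir335 in a Mest intron had at most 7 counts per library, and Mir675 in an H19 exon, Mir483 inside Igf2 and Mir3099 inside Usp29 had 0 counts.

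Noncoding members with low total to 4sU ratios changed in nascent RNA. Kcnq1ot1 (chr7:143212155-143296549, minus strand), the long antisense RNA of the Kcnq1 domain, had 989.6, 1055 and 822.6 CPM in wild-type and 608.4, 699.3 and 811.0 CPM in KO 4sU RNA. KO replicate 3 came close to the lowest wild-type library without overlap, and the change was -0.44 (SE 0.0714, limma adjusted p = 4.95e-06). In total RNA the overlapping groups stood at 308.7 ± 10.2 and 308.2 ± 12.7 CPM (SD, n = 3), with a change of -0.0020 (SE 0.0794, limma adjusted p = 0.984), and the stability change was 0.43 (SE 0.107, limma adjusted p = 4.25e-03). Around it and Phlda2, Tssc4 fell in total (-0.60) and 4sU RNA (-0.35), from 34.03 ± 2.74 to 22.5 ± 0.954 CPM and from 58.5 ± 7.08 to 45.5 ± 5.68 CPM (SD, n = 3). Nap1l4, a histone chaperone gene, fell in total (-0.38) and 4sU RNA (-0.30), from 201.5 ± 5.004 to 154.4 ± 3.76 CPM and from 74.0 ± 1.94 to 60.3 ± 8.29 CPM (SD, n = 3). Cd81, a tetraspanin, rose slightly in total RNA (0.15), from 319.4 ± 11.01 to 354.2 ± 2.17 CPM, and stood at 165.8 ± 11.98 and 159.6 ± 2.53 CPM in 4sU RNA (SD, n = 3).

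Peg13 (chr15:72805600-72810324, minus strand), a noncoding RNA inside an intron of Trappc9 on the same strand, had 9.97, 9.20 and 7.12 CPM in wild-type and 15.2, 15.8 and 19.2 CPM in KO 4sU RNA. That was a rise of 0.93 (SE 0.173, limma adjusted p = 2.99e-05), just under the limit. In total RNA its groups overlapped (0.30, SE 0.286, limma adjusted p = 0.369). The log2 ratio of Peg13 to Trappc9, the gene around it, moved from -1.71 ± 0.0840 to -0.50 ± 0.122 in 4sU RNA (SD, n = 3, exact permutation p = 0.1).

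Airn, the antisense RNA of the Igf2r domain, stayed under the filter. It had 14, 9 and 11 counts in wild-type and 3, 3 and 1 counts in KO 4sU RNA, a wild-type to KO ratio of 4.53 with a counting interval from 1.98 to 12.1. Igf2r, the receptor that clears IGF2, changed by -0.17 in total RNA (SE 0.0514, limma adjusted p = 4.04e-03).

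Other members moved by less than the limit. Grb10 (chr11:11930508-12037401, minus strand), an adaptor that restrains insulin signalling, rose in total (0.47, SE 0.0625, limma adjusted p = 8.39e-08) and in 4sU RNA (0.83, SE 0.100, limma adjusted p = 2.12e-08). Impact, a regulator of the kinase GCN2, also rose in both (0.28 and 0.45). Falls in both were seen for Snrpn, a splicing protein gene (-0.69 and -0.58), Zrsr1, a splicing factor retrogene inside Commd1 (-0.68 and -0.35), Mest, an alpha/beta hydrolase family gene (-0.28 and -0.63) and Inpp5f (-0.38 and -0.44). The 7 members with no adjusted p under 0.05 in total RNA were Kcnq1ot1, Peg10, Copg2, Blcap, Ube3a, Mkrn3 and Peg13.

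Levels spanned a wide range. Per kilobase of exon, wild-type total RNA held 208.3 ± 7.18 CPM of Cd81, 84.3 ± 2.09 of Nap1l4 and 73.8 ± 3.78 of Impact, the 3 highest members (SD, n = 3). At the other end were Usp29 at 1.34 ± 0.140, Igf2 at 0.850 ± 0.196 and Peg13 at 0.543 ± 0.129 CPM per kilobase (SD, n = 3). Of the 8 members called in total RNA, H19, Igf2, Sgce and Usp29 were thus among the 6 lowest of the 34 in wild-type cells, while Plagl1 and Peg3 ranked 9 and 12.

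The 10 members under the filter were Airn (62 counts over 12 libraries), Cdkn1c (90), Zim1 (81), Nnat (32), Snurf (0), Magel2 (25), Ascl2 (134), Slc22a18 (37), Rasgrf1 (9) and Kcnk9 (0). Cdkn1c encodes a cell cycle inhibitor and Ascl2 a trophoblast transcription factor. All 216 exon bases of Snurf are shared with Snrpn and Gm38393 on the same strand, so its 0 counts carry no information. A count of 0 for Kcnk9 allows up to 3 counts per library, by counting error only.

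Relative stability differed among members in wild-type cells. Against all genes tested, the total to 4sU ratio stood at percentile 99.0 for H19, 98.6 for Copg2 and 96.9 for Igf2r, and at percentile 9.17 for Mkrn3, 12.3 for Zrsr1, 15.6 for Peg13 and 16.9 for Kcnq1ot1. In KO the values were 86.7, 98.2 and 97.3, and 9.87, 10.4, 11.4 and 24.3. These ratios are descriptions over 3 same-numbered library pairs. That of H19 rests on 14 wild-type and 4 KO 4sU counts, with a log2 SD of 0.623 and 0.962 over the pairs. The stability change of H19 did not pass (limma adjusted p = 0.421).

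**Figure D5:**
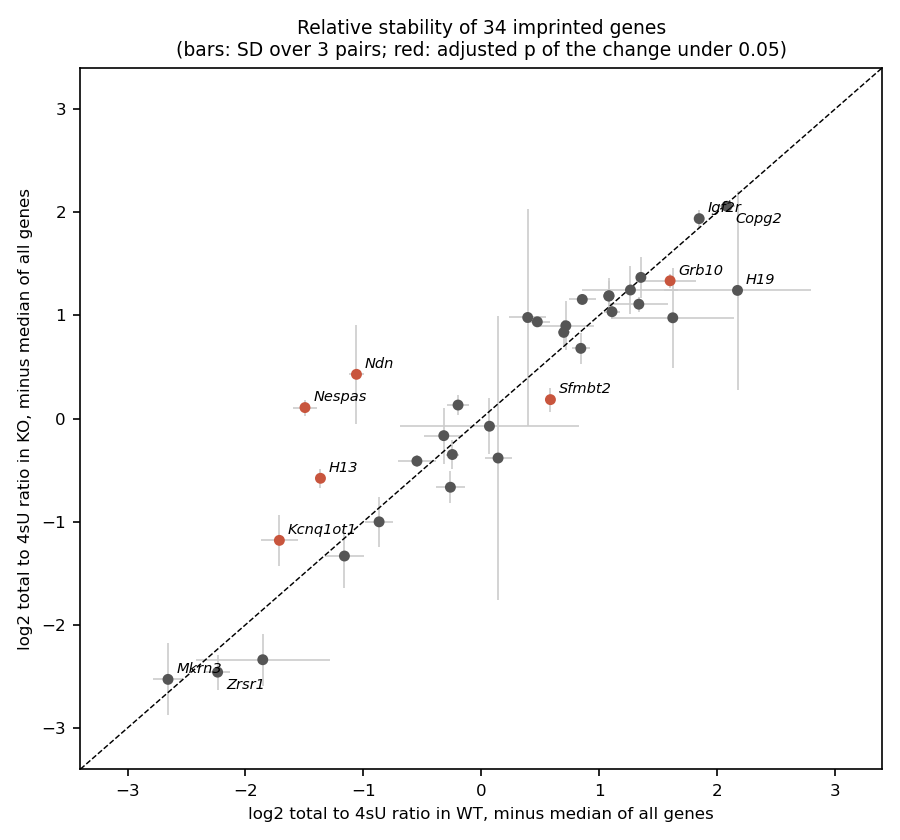
Log2 total to 4sU ratio in KO (vertical) against wild-type (horizontal), each minus the median of all tested genes, with SD over 3 same-numbered pairs and a dashed line of equality. Nespas, Ndn, H13 and Kcnq1ot1 (red) lie above the line, Grb10 and Sfmbt2 (red) below it, and Copg2 and Igf2r sit at the stable end in both.

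Factors that protect, write or erase imprints were read as a further list of 20 genes, all of which passed the filter. In total RNA 3 were called, all lower (17.2% of all genes were called and 7.82% called lower), and 8 rose and 7 fell at an adjusted p under 0.05 (27.2% and 36.7% of all genes). Dppa3, which shields methylation in the early embryo, went from 12.97 ± 0.255 to 0.376 ± 0.223 CPM in total RNA (SD, n = 3, change -5.03, SE 0.463, limma adjusted p = 3.92e-11). It was the 1 factor called in 4sU RNA (14.8% of all genes), at 5.24 ± 0.764 against 0.587 ± 0.405 CPM (SD, n = 3). With such KO levels Dppa3 passed the filter only through wild-type libraries, so it had to be lower. Uhrf1, which brings DNMT1 to newly copied DNA, had a total change of -1.15 (SE 0.0590, limma adjusted p = 2.93e-17). Hells, a remodelling factor, had a total change of -1.01 (SE 0.0507, limma adjusted p = 1.72e-17), but this was under the limit in DESeq2 (-0.98), with RLE (-0.98), upper-quartile (-0.99) or library size scaling (-0.96), with no filter (-0.98) or the strict filter (-0.99), and without KO replicate 3 (-0.98).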

How the data were processed

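RNA from 12 samples was examined: wild-type and Dgcr8 KO ESCs, 4sU and total RNA, 3 replicates each, grouped by their titles. The deposited values were raw read counts per gene. Per the labels and the file headers, reads were trimmed by the authors (cutadapt 1.14), placed on mm10 where they aligned at a single position (STAR 2.5.3a), and tallied over exons of the sense strand (featureCounts 1.5.3) on GENCODE M14 without rRNA genes. Unique mapping under-counts near-identical copies. The 92 ERCC spike-in entries held 1 count in all and were left out, so no absolute scaling was possible. Of 51559 identifiers, 51274 matched GENCODE M21, which gave symbols, 3′ untranslated regions and microRNA positions.

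Genes with at least 3 CPM in at least 3 libraries were kept. Counts were scaled by TMM in edgeR 4.0.16 and fitted with voom weights in limma 3.58.1 (R 4.3.3). All 12 libraries shared 1 model with terms for RNA type, genotype and the interaction of the 2, with Benjamini-Hochberg adjustment over 14033 genes. DESeq2 1.42.0 and the quasi-likelihood test of edgeR were alternatives, beside other scalings, filters, blocks and left-out replicates. On simulated counts with a log2 change of 1.5 in 192 of 13411 genes, 94.3% were called in total RNA (5 false calls) and 83.9% for stability (9 false calls). Ratios of summed counts have exact conditional binomial intervals, which cover counting error only. Exact permutation tests used scipy 1.17.1.

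The members and lists were chosen with earlier results of these data known. Every member is accounted for. Full values are given for members called in at least 1 contrast, levels for their tested locus partners, and the rest by counts, ranges and examples. Each RNA sample was split, so same-numbered 4sU and total libraries of a genotype come from 1 sample and were also fitted with a culture block. Replicate numbers of wild-type and KO share only a number.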

Additional observations from a re-analysis of the deposited data

Results flagged for a closer look

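For 6 members the effect of Dgcr8 loss differed between total and 4sU RNA by the interaction term of the limma model. Nespas (1.51, adjusted p = 2.87e-09) and Ndn (1.41, adjusted p = 4.76e-04) moved in opposite directions in the 2 RNA types, up in every total and down in every 4sU library of the KO. H13 (0.69, adjusted p = 2.48e-04) rose in total RNA, and its nascent change did not pass. Kcnq1ot1 (0.43, adjusted p = 4.25e-03) fell in nascent RNA, and its total change did not pass. Without KO replicate 1 its stability change was 0.31, with an adjusted p of 0.0617. Grb10 (-0.36, adjusted p = 0.0315) and Sfmbt2 (-0.51, adjusted p = 0.0242) rose further in nascent than in total RNA. Neither held in every fit. Grb10 missed the threshold with DESeq2 (-0.27, adjusted p = 0.169), RLE (adjusted p = 0.124), upper-quartile (0.0885) or library size scaling (0.0510), with no filter (0.130) and without wild-type replicate 2 or 3 or KO replicate 2 or 3 (adjusted p from 0.0592 to 0.209). Sfmbt2 missed it with DESeq2 (-0.42, adjusted p = 0.132), RLE (0.0707) or upper-quartile scaling (0.0562), with no filter (0.124) and without wild-type replicate 1, 2 or 3 or KO replicate 2 or 3 (adjusted p from 0.0519 to 0.0751).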

How the results depend on the processing

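Of 17 called changes of members, 0 reversed under any alternative, and 4 lost the call in some: H19, Peg3 and Sfmbt2 in nascent RNA and Phlda2 in total RNA. For H19, Sgce and Phlda2 some or all fits without a wild-type replicate gave no value, since they then failed the filter. Of 40 changes with an adjusted p under 0.05 and no call, 12 missed the threshold somewhere and 0 reversed. With 3 CPM required in all 12 libraries, 3 members were called in total and 3 in nascent RNA, of 28 tested, and with no limit on the change 27, 24 and 6 were called in total RNA, nascent RNA and stability. Leaving out 1 replicate, 5 to 8 were called in total RNA. Over all genes, no filter beyond 1 count gave 4002 total and 3801 nascent calls, 3 CPM in all libraries 1045, 837 and 115 (stability), and no limit 8971, 7898 and 2261. The filter settings changed the number of genes tested, and the last setting dropped the limit itself. What lay behind the differences with 1 replicate left out was not tested.

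Reversals touched only changes that did not pass the threshold. The total change of Kcnq1ot1 was 0.0291 in DESeq2, 0.0297 with RLE, 0.0146 with upper-quartile scaling, 0.0507 with library size only, 0.0310 with no filter and 0.0181 with the strict filter, and -0.0263 to 0.0426 without 1 replicate. Without 1 replicate Peg10 ranged from -0.0674 to 0.21 in total and from -0.0270 to 0.19 in nascent RNA, and stability changes ranged from -0.68 to 0.0232 for Igf2, from -0.0816 to 0.10 for Peg3, from -1.26 to 0.13 for Usp29 and from -0.15 to 0.89 for Sgce. The cause was not tested.

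In the fit with a replicate block, 8, 7 and 2 members were called, as without it, and 2438, 2051 and 293 genes in total RNA, nascent RNA and stability. The block moved 3 uncalled changes across an adjusted p of 0.05: Trappc9 missed it in total RNA (0.0550), and Igf2r (0.0461) and Trappc9 (0.0373) passed it in nascent RNA. Deviations of same-numbered wild-type and KO libraries correlated at -0.0699 to 0.0699. Those of same-numbered 4sU and total libraries of a genotype correlated at 0.0110 to 0.0783. The correlations thus did not tell these pairings apart, and the split of each RNA sample is taken from the study's methods. The culture block changed no member's side of the threshold. Depth limits H19, Usp29, Sgce, Airn and Phlda2 most, whose KO 4sU values rest on 4 to 16 counts over 3 libraries. Seed matches were in 14 members for any GCACTT hexamer, against 13. Of 44 group means of called members, 7 moved by over 1 SD with library size only.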

Other observations

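The hexamer TGCCGC, which ZFP57 is known to bind when methylated, was searched on both strands of RefSeq promoter windows (250 bases before to 50 after a start). It occurred in 13 of 49 windows of list genes (26.5%) and in 11.6% of 32851 windows. The genes were Commd1, Copg2, Grb10, Igf2, Mcts2, Mest, Nnat, Plagl1, Snrpn, Snurf, Zdbf2 and Zim1. Several windows belong to 1 gene or overlap, the motif was chosen after results were known, and the libraries hold no methylation data. Of these genes, Nnat, Snurf and Zim1 were under the filter. Igf2 and Plagl1 were called lower in total and nascent RNA (7.82% and 5.27% of all genes were called lower). Igf2 passed the filter only through wild-type libraries, so it had to be lower. A link between the motif and these changes was not tested.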
